A study of Homo sapiens with 8 samples.

Results

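The 10 genes described here are the heat shock factor *HSF1* and 9 chaperone genes of the cytosol and the mitochondrial matrix: *HSPA1A*, *HSPA1B*, *HSPA8*, *HSPH1*, *DNAJB1*, *HSP90AA1*, *HSP90AB1*, *HSPD1* and *HSPE1*. They were chosen by symbol, each was matched to 1 of the 60754 genes and spike-in sequences measured, and all 10 passed the filter on low values. Their RNA was measured in SEM cells, established from human B-lineage acute leukemia with a rearranged KMT2A gene, in which both alleles of *CTCF* carry a miniAID-mClover3 degron tag. The cells also express a lentiviral mutant of the plant F-box protein OsTIR1 together with a Zeocin resistance gene, so that the auxin analog 5-Ph-IAA leads to degradation of the tagged CTCF. Clones C17.2 and C3.2 are separate clones of this CTCFAID2 line, and each gave 2 libraries of parental cells, which were untreated, and 2 of resistant cells, 8 libraries in all. Resistant cells had been kept to day 36 in 5-Ph-IAA (1 μM) plus Zeocin (100 μg/ml), and both agents were withdrawn before RNA was prepared. By the study's account, resistant C17.2 cells carry a shortened CTCF without the tag, beside tagged CTCF that returns once the agents are withdrawn, and resistant C3.2 cells carry a mutation in the tag and keep full-length CTCF. Each kind of resistance is thus represented by 1 clone, and the question was how chaperone RNA differed between resistant and parental cells of each clone.

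Chaperones bind unfolded proteins and help them to fold, assemble or be degraded. In the cytosol, HSP70 proteins take up clients that J-domain proteins such as DNAJB1 deliver, nucleotide exchange factors such as HSPH1 release them, and HSP90 proteins complete the folding of many kinases and receptors. In the mitochondrial matrix, HSPD1 forms a barrel that HSPE1 closes as a lid. HSF1 is held inactive by chaperones, and when unfolded proteins occupy these it forms trimers that bind heat shock elements, which are inverted repeats of the unit GAA, and raises transcription of chaperone genes. HSF1 is controlled mainly as a protein, so its RNA is not a readout of its activity.

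Heat shock elements were searched as letters in windows from 250 bases before to 50 bases after each start site (RefSeq, GRCh38.p14). The motif of 3 units, GAANNTTCNNGAA on either strand, was found in 0.49% of 35116 windows, and a pair of units, GAANNTTC or TTCNNGAA, was found in 13.5% (4737). Both pairs read the same on either strand, and each match of 3 units contains 1 of each. Windows were available for 9 of the 10 genes, 15 windows in all, of which 8 held a match. *HSP90AA1*, *HSP90AB1*, *HSPA8* and *HSPD1* held 3 units, *HSPA1A*, *HSPA1B* and *DNAJB1* held pairs only, and no match lay in the windows of *HSPH1* and *HSPE1*. The stretches that follow are shown because they hold these matches beside the starts of the genes whose RNA is described, with matched letters in capitals, 5′ to 3′ in the direction of the gene. The first pair shows how alike the upstream sequences of the 2 inducible HSP70 genes are, and the others show how the matches are arranged, with the nearer to the start of the 2 matches of *HSPA8*.
HSPA1A, chr6:31815293-31815542, forward strand: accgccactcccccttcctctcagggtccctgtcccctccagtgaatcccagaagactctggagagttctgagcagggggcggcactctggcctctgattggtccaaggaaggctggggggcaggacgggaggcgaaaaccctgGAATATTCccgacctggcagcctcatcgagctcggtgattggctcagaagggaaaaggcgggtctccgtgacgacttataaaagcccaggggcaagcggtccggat
HSPA1B, chr6:31827488-31827737, forward strand: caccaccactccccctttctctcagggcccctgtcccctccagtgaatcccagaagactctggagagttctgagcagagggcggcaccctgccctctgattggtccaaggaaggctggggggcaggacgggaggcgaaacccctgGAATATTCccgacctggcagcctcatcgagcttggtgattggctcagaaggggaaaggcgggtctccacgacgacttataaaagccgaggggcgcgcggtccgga
DNAJB1, chr19:14518428-14518497, reverse strand: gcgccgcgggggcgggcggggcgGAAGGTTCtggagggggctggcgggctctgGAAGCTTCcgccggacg
HSPA8, chr11:123062172-123062199, reverse strand: cgggccccTTCTGGAAGGTTCtaagata
HSP90AA1, chr14:102087090-102087154, reverse strand: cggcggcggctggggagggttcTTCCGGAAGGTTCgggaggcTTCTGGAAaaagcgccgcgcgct
HSP90AB1, chr6:44247768-44247851, forward strand: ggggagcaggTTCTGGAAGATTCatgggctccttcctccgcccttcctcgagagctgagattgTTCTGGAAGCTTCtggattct
HSPD1, chr2:197500063-197500090, reverse strand: gcattTTCTGGAAAGTTCTGGAAccgag

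The *HSPA8* and *HSPD1* stretches fall in untranslated sequence of longer transcripts of the same genes in Gencode release 44, and the other 5 lie outside exons. *HSPD1* and *HSPE1* stand head to head on chromosome 2. The *HSPD1* match of 18 bases begins 228 bases upstream of the *HSPD1* start, and its other end lies 55 bases before the annotated start of the *HSPE1* gene in Gencode and 294 bases before the RefSeq start that was searched. A match is a description of the sequence, since binding of HSF1 was not measured.

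**Figure D1:**
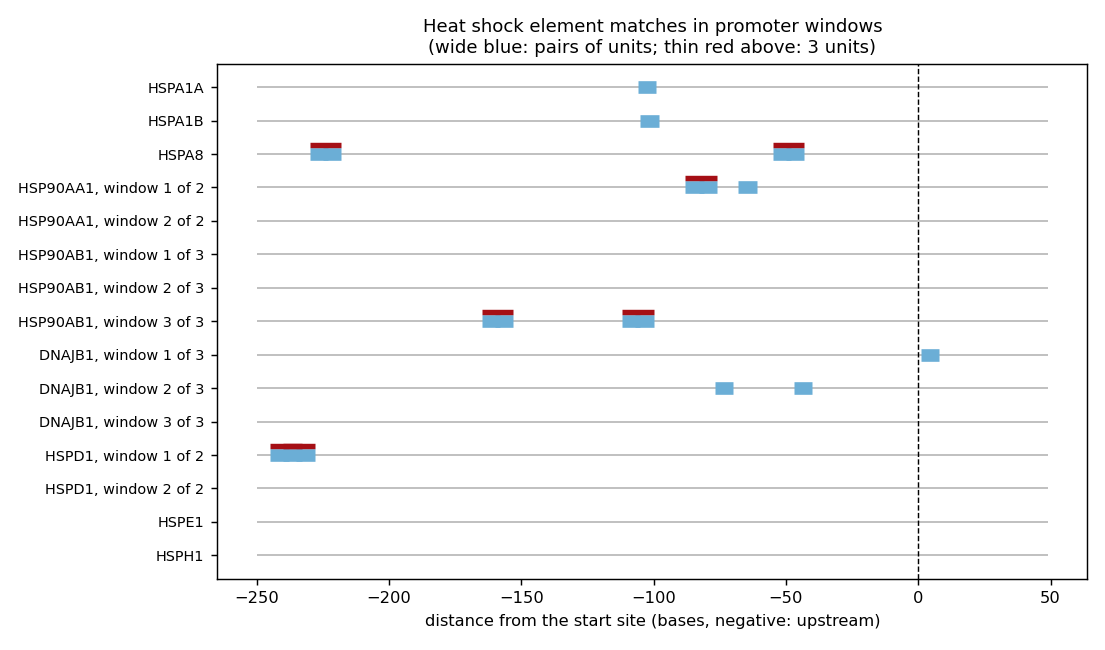
Matches to the heat shock element in the 15 promoter windows of 9 genes, drawn by distance from the start site in bases on the horizontal axis, with 1 line a window. Wide bars are pairs of units and thin bars above them are matches of 3 units, and the windows of *HSPE1* and *HSPH1* are empty.

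The deposited values are TPM, read estimates corrected for gene length and for the library total, so that levels of different genes can be set side by side. TPM keeps no depth, so the depth of the libraries and the counting error are unknown. Between 36.0% and 43.3% of TPM fell on protein-coding genes and between 31.2% and 37.6% on small nuclear RNAs, and libraries were therefore scaled by factors between 0.893 and 1.16 before testing. Values in single libraries are given as deposited, whereas log2 changes are of scaled TPM + 1, tested in limma with Benjamini-Hochberg adjustment over 15614 genes and a threshold of 0.05. Nothing in the labels says that the 2 libraries of a group came from separate cultures, so p-values measure the spread between libraries, which may be technical. The sample titles open with numbers that form a separate run for each clone, and what these numbers stand for is not stated, so a difference in level between clones cannot be told apart from whatever else separates the runs. Of 12 markers of B-lineage leukemia, 10 reached 1 TPM in a library, and *RAG1* and *DNTT* did not. Of 11 markers of other cell types 2 did (*LYZ* and *COL1A1*), with the 11 summing to between 3.38 and 3.91 TPM in C17.2 parental cells, 8.69 and 9.93 in the resistant cells, 3.0 and 3.67 in C3.2 parental cells, and 5.27 and 5.63 in the resistant cells.

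In C17.2 resistant cells, RNA of all 9 chaperone genes rose and *HSF1* RNA fell, relative to parental cells. In C3.2, only *HSPA1A*, *HSPA1B* and *DNAJB1* passed the test among the 10 genes, all higher. Across all genes tested, 27.3% were called in C17.2 (13.4% higher and 13.9% lower) and 11.4% in C3.2 (4.46% higher and 6.9% lower). The median log2 change of the 10 genes was 0.864 in C17.2 and 0.0406 in C3.2, and that of all genes tested was 0 in both. In RNA of a whole culture, fewer cells that express a gene and less RNA per cell cannot be told apart.

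**Figure D2:**
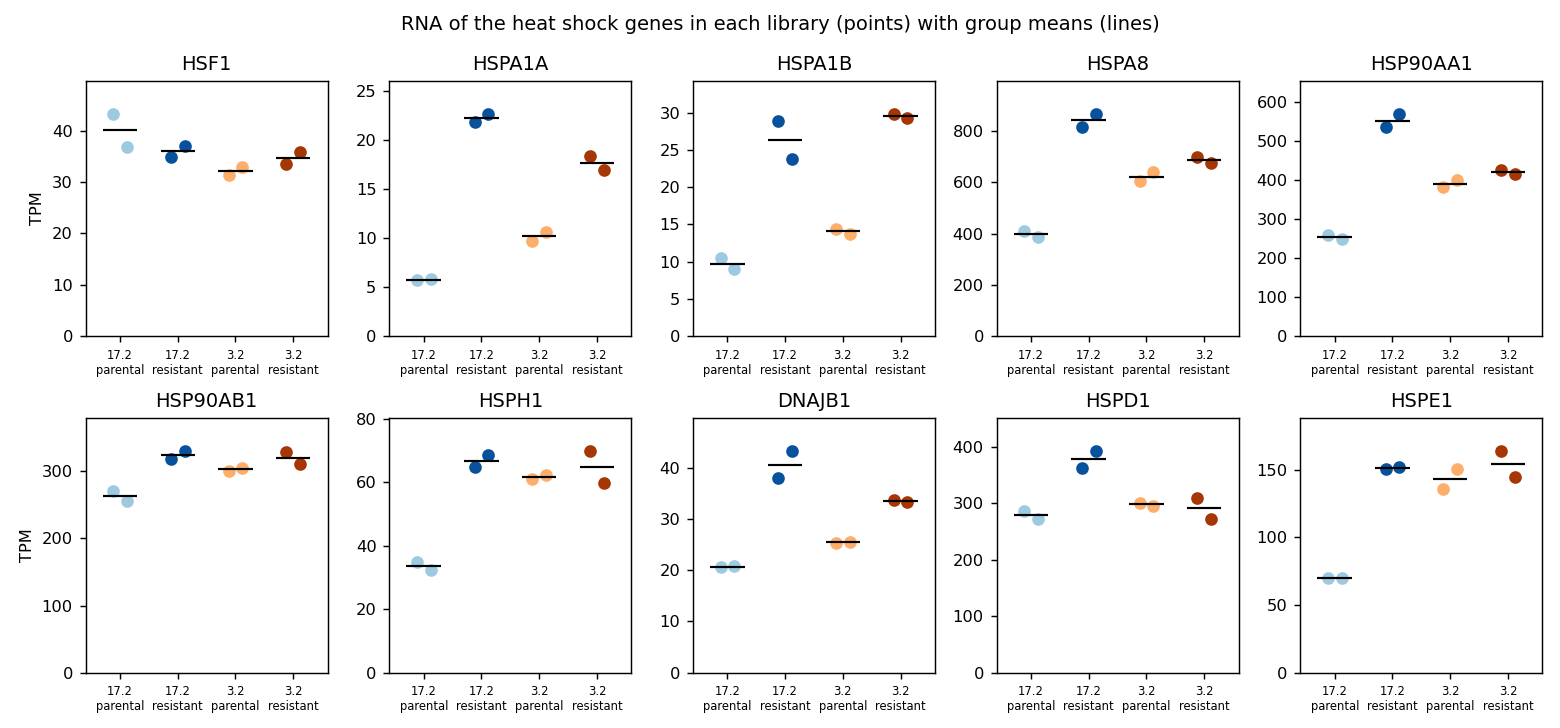
TPM of the 10 genes (vertical axes, each from 0) in the 8 libraries, grouped on the horizontal axis by clone and state, with points for libraries and lines for the means of 2. For all genes except *HSF1* both C17.2 resistant libraries lie above both parental libraries, whereas in C3.2 the gap is wide only for *HSPA1A*, *HSPA1B* and *DNAJB1*.

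*HSF1* (ENSG00000185122.11), the regulator of the others, lies on chromosome 8 and overlaps *DGAT1* on the opposite strand. Its RNA was 43.16 and 36.88 TPM in C17.2 parental cells and 34.85 and 37.01 TPM in C17.2 resistant cells. The resistant values were close together, and the lower parental value fell between them, so that the groups overlapped on the deposited scale. After scaling, *HSF1* fell by 0.30 on the log2 scale (standard error 0.071, adjusted p = 0.0225 from limma). This call was lost on TPM as deposited (log2 change -0.15, adjusted p = 0.233), on TPM rescaled over protein-coding genes (adjusted p = 0.064) and without a filter on low values (adjusted p = 0.0558, all from limma). It was also lost when parental replicate 1 (adjusted p = 0.117), resistant replicate 1 (adjusted p = 0.103) or resistant replicate 2 (adjusted p = 0.0831, all from limma) of C17.2 was left out. In C3.2 *HSF1* was at 31.27 and 32.90 TPM in parental cells and 33.48 and 35.72 TPM in resistant cells, a log2 change of 0.04 whose 95% confidence interval ran from -0.13 to 0.21. *DGAT1*, an enzyme of triglyceride synthesis, went from 9.25 and 9.47 TPM to 18.7 and 16.7 TPM in C17.2, and the strand setting of the counting is not given in the sources used here, so reads in the overlap cannot be assigned with certainty.

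*HSPA1A* (ENSG00000204389.9, chr6:31815543-31817946) and *HSPA1B* (ENSG00000204388.7, chr6:31827738-31830254) encode the stress-inducible HSP70 of the cytosol. Their coding sequences of 1923 bases differ at 4 positions (99.8% identical) and encode the same protein of 641 residues, and the 250 bases upstream printed above are 93.6% identical over their alignment. The division of reads between them is therefore uncertain, and their sum is the safer value. *HSPA1A* RNA was 5.69 and 5.82 TPM in C17.2 parental cells and 21.89 and 22.63 TPM in the resistant cells. *HSPA1B* RNA was 10.43 and 8.98 TPM in the same parental cells and 28.91 and 23.81 TPM in the resistant cells. For both genes each resistant library was above both parental libraries. The sum of both genes, 16.12 and 14.80 TPM before and 50.80 and 46.44 TPM after, rose by a log2 value of 1.43 (standard error 0.061, adjusted p = 4.83e-05 from limma), and its mean was 3.14-fold higher on the TPM scale. Fitted as separate genes, *HSPA1A* changed by 1.63 (adjusted p = 2.39e-05) and *HSPA1B* by 1.19 (adjusted p = 0.000633, both from limma).

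These genes also rose in C3.2. *HSPA1A* RNA was 9.73 and 10.65 TPM in C3.2 parental cells and 18.41 and 16.96 TPM in resistant cells, and *HSPA1B* RNA was 14.35 and 13.75 TPM in parental cells and 29.81 and 29.29 TPM in resistant cells. The sum went from 24.08 and 24.40 TPM to 48.22 and 46.25 TPM, a log2 change of 0.87 (standard error 0.061, adjusted p = 0.00108 from limma). On the deposited scale the resistant sums of both clones thus lay in the same range, between 46.25 and 50.80 TPM, and the parental sums did not. After scaling, the mean sums were 42.7 in C17.2 and 49.7 in C3.2 resistant cells, and 15.2 and 26.7 in the parental cells. The rise of the sum was larger in C17.2 by a log2 value of 0.56 (adjusted p = 0.0142 from the limma interaction test). For *HSPA1A* alone this difference was 0.95 (adjusted p = 0.00208) and for *HSPA1B* alone it was 0.23, which did not pass the test (95% confidence interval -0.13 to 0.59, adjusted p = 0.374, both from limma). The ratio of *HSPA1A* to *HSPA1B* was 0.546 and 0.648 in C17.2 parental and 0.757 and 0.95 in resistant libraries, and 0.678 and 0.775 in C3.2 parental and 0.618 and 0.579 in resistant libraries. The rise of *HSPA1A* in C3.2 was not called when that clone was fitted alone (adjusted p = 0.0544 from limma).

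*HSPA8* (ENSG00000109971.14, chr11:123057489-123063230), the HSP70 that cells make without stress, was the most abundant of the 10 genes in every library. It was at 409.53 and 386.37 TPM in C17.2 parental cells and at 818.29 and 866.28 TPM in the resistant cells, so each resistant library held about as much as both parental libraries summed. The log2 change was 0.92 (standard error 0.042, adjusted p = 5.54e-05 from limma). In C3.2 it was at 604.21 and 639.02 TPM in parental cells and 698.50 and 677.67 TPM in resistant cells. The groups did not overlap there, and the log2 change of 0.08 (95% confidence interval -0.02 to 0.18) did not pass the test (adjusted p = 0.27 from limma). It passed on quantile-normalized values, with a change of 0.27 (adjusted p = 0.0273), and after rescaling to protein-coding genes, with a change of 0.18 (adjusted p = 0.0363, both from limma). The changes of both clones differed by 0.84 (adjusted p = 0.00118 from limma). The 17 pseudogenes of *HSPA8* in the table summed to at most 0.549% of the TPM of the gene and its copies, and the small nucleolar RNAs *SNORD14C*, *SNORD14D* and *SNORD14E* inside it are listed at 0 in all 8 libraries.

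*HSPH1* (ENSG00000120694.19, chr13:31134973-31162388), an HSP110 protein that serves HSP70 as exchange factor, was called in C17.2 alone, and its changes differed between clones by 0.81 (adjusted p = 0.00316 from limma). It was at 34.78 and 32.42 TPM in C17.2 parental cells and 64.80 and 68.49 TPM in the resistant cells, with a log2 change of 0.81 (standard error 0.056, adjusted p = 0.000267 from limma). In C3.2 it was at 61.20 and 62.39 TPM in parental cells and 69.91 and 59.77 TPM in resistant cells. The resistant values stood on either side of the parental ones, and the log2 change of -0.0014 had a 95% confidence interval from -0.14 to 0.13. Within a library the ratio of *HSPH1* to *HSPA8* kept to a narrow range, between 0.0791 and 0.101 over the 8 libraries.

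*DNAJB1* (ENSG00000132002.8, chr19:14514769-14560391), the J-domain partner of HSP70 that is itself induced by stress, was called in both clones. It was at 20.51 and 20.84 TPM in C17.2 parental cells and 37.93 and 43.23 TPM in the resistant cells. In C3.2 it was at 25.35 and 25.50 TPM in parental cells and 33.64 and 33.18 TPM in resistant cells. No resistant library overlapped a parental library of its clone, and the gap was narrower in C3.2. The log2 changes were 0.78 (standard error 0.065, adjusted p = 0.000504) and 0.32 (standard error 0.065, adjusted p = 0.0292), with a difference of 0.46 (adjusted p = 0.0288, all from limma). The C3.2 rise was not called without a filter on low values, with each clone fitted alone or without the intensity trend (adjusted p from 0.0515 to 0.082), nor when any single library was left out other than the resistant libraries of C17.2 (adjusted p from 0.0527 to 0.141, all from limma). The difference between clones was lost without the intensity trend (adjusted p = 0.0516) and when any library except resistant replicate 1 of C17.2 was left out (adjusted p from 0.0553 to 0.11, all from limma). *TECR*, on the opposite strand at this locus, was at 65.1 and 62.1 TPM in C17.2 parental cells and 94.15 and 90.76 TPM in the resistant cells.

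The cytosolic HSP90 genes did not move alike. *HSP90AA1* (ENSG00000080824.18, chr14:102080742-102139699), the inducible form, was at 258.47 and 247.74 TPM in C17.2 parental cells and 535.07 and 568.78 TPM in the resistant cells, a log2 change of 0.96 (standard error 0.041, adjusted p = 4.86e-05 from limma). *HSP90AB1* (ENSG00000096384.20, chr6:44246166-44253888), the constitutive form, was at 270.64 and 255.45 TPM in parental cells and 318.19 and 330.36 TPM in the resistant cells, a log2 change of 0.14 (standard error 0.036, adjusted p = 0.0317 from limma). Both genes were about equal in the parental cells of this clone, and the inducible form exceeded the constitutive one by more than 200 TPM in its resistant cells. The rise of *HSP90AB1* was not called without the intensity trend (adjusted p = 0.0784) or when any library of C17.2 (adjusted p from 0.0712 to 0.115) or either parental library of C3.2 (adjusted p from 0.0517 to 0.0558, all from limma) was left out. In C3.2, *HSP90AA1* was at 381.94 and 399.13 TPM in parental cells and 424.63 and 416.29 TPM in resistant cells, and *HSP90AB1* was at 300.27 and 305.64 TPM in parental cells and 328.62 and 310.48 TPM in resistant cells. Resistant libraries were slightly higher for both genes on the deposited scale, and after scaling the log2 changes of 0.04 (95% confidence interval -0.06 to 0.14) and 0.0099 (95% confidence interval -0.08 to 0.10) did not pass the test. The difference between clones was 0.92 for *HSP90AA1* (adjusted p = 0.000822) and 0.13 for *HSP90AB1* (95% confidence interval 0.0070 to 0.25, adjusted p = 0.167, both from limma). *HSP90AB1* held 2 matches of 3 units upstream of its start, and *HSP90AA1* held 1 beside a separate pair of units. Any part of these matches in the changes was not tested.

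*HSPD1* (ENSG00000144381.17, chr2:197486584-197516737, reverse strand) and *HSPE1* (ENSG00000115541.11, chr2:197500140-197503449, forward strand) share the region between their starts, and the full span of *HSPD1* in Gencode contains that of *HSPE1*. *HSPD1* RNA was 286.32 and 272.75 TPM in C17.2 parental cells and 363.13 and 392.91 TPM in the resistant cells. *HSPE1* RNA was 70.22 and 69.91 TPM in the same parental cells and 150.96 and 152.45 TPM in the resistant cells. The lid gene therefore more than doubled on the TPM scale, by 2.17-fold, where the barrel gene was 1.35-fold higher. The log2 changes were 0.27 for *HSPD1* (standard error 0.055, adjusted p = 0.0135) and 0.94 for *HSPE1* (standard error 0.060, adjusted p = 0.000185, both from limma). The *HSPD1* call was lost when parental replicate 1 (adjusted p = 0.0788), parental replicate 2 (adjusted p = 0.0658) or resistant replicate 2 (adjusted p = 0.0708, all from limma) of C17.2 was left out.

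In C3.2, *HSPD1* was at 300.59 and 296.06 TPM in parental cells and 309.87 and 272.09 TPM in resistant cells, and *HSPE1* was at 136.07 and 151.00 TPM in parental cells and 164.03 and 144.44 TPM in resistant cells. The groups overlapped for both genes. The log2 change was -0.11 for *HSPD1* (95% confidence interval -0.24 to 0.03) and 0.04 for *HSPE1* (95% confidence interval -0.11 to 0.18). The difference between clones was 0.91 for *HSPE1* (adjusted p = 0.00277) and 0.38 for *HSPD1* (adjusted p = 0.0327, both from limma). The latter was lost on TPM as deposited, on quantile-normalized values and without the intensity trend (adjusted p from 0.0531 to 0.068), and when any library except resistant replicate 1 of C3.2 was left out (adjusted p from 0.0529 to 0.121, all from limma). *HSPE1* has 26 pseudogenes in the table, which together reached up to 23.3% of the TPM of *HSPE1* and its copies. They summed to 18.92 and 21.22 TPM in C17.2 parental cells and 32.99 and 36.41 TPM in the resistant cells, the direction of *HSPE1* itself, and the call on *HSPE1* in C17.2 was kept when they were added to it. The read-through gene *HSPE1-MOB4* was at most 1.54 TPM in any library, and *MOB4* was between 9.65 and 13.75 TPM.

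**Figure D3:**
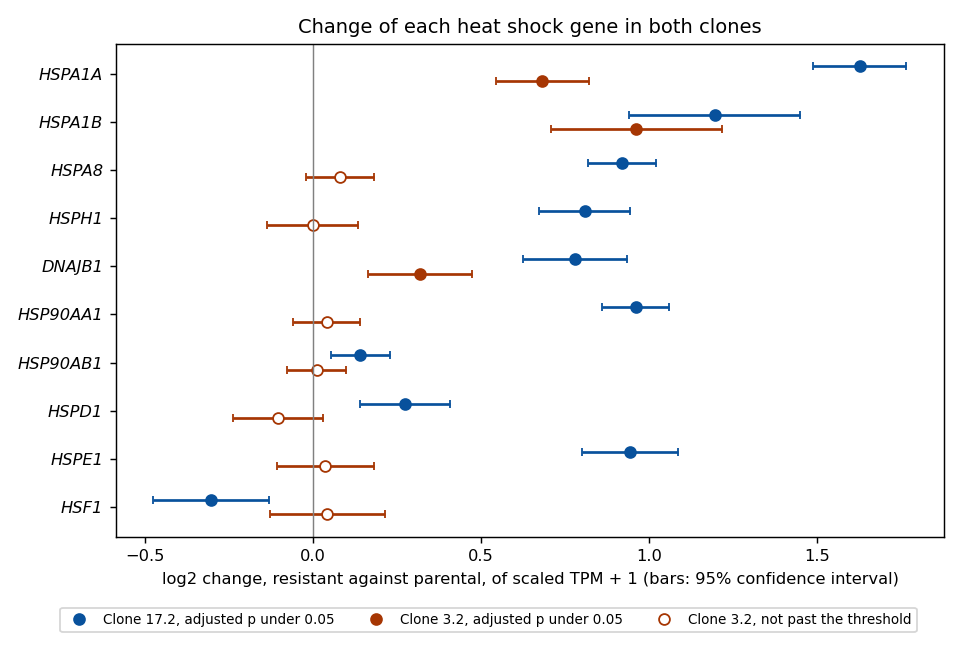
Log2 change of scaled TPM + 1, resistant against parental cells, on the horizontal axis for the 10 genes, with 1 point a clone and 95% confidence intervals from limma as bars, and filled points for an adjusted p under 0.05. C17.2 changes run from -0.30 (*HSF1*) to 1.63 (*HSPA1A*), and 7 of the 10 C3.2 points are open.

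Over the 10 genes, 7 differed between clones in the limma interaction test, all with the larger change in C17.2, where 9.91% of all genes tested were called (4.92% in this direction). The 7 were *HSPA1A*, *HSPA8*, *HSP90AA1*, *HSPH1*, *DNAJB1*, *HSPD1* and *HSPE1*, and those not called were *HSF1* (adjusted p = 0.0839), *HSPA1B* and *HSP90AB1*. On deposited TPM, both resistant libraries lay above both parental libraries for 9 of the 10 genes in C17.2, where 49.2% of all genes did so, and for 7 in C3.2, where 36.6% did. The 10 genes together made up 0.338% and 0.34% of protein-coding TPM in C17.2 parental libraries, 0.564% and 0.579% in the resistant ones, 0.498% and 0.5% in C3.2 parental libraries and 0.552% and 0.554% in the resistant ones. The parental cells of the clones therefore stood apart, and their resistant cells were close. Scaled mean levels in parental cells were 1.2-fold (*HSPD1*) to 2.3-fold (*HSPE1*) higher in C3.2 than in C17.2 for the 9 chaperone genes, and 0.901-fold for *HSF1*. In resistant cells the ratio of C17.2 to C3.2 ran from 0.745 (*HSPA1B*) to 1.09. The difference between parental clones lies between these runs of title numbers and was not tested.

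The order of the genes by TPM changed accordingly. In C17.2 parental cells *HSPA8* was followed by *HSPD1*, *HSP90AB1* and *HSP90AA1*, with the libraries of the latter pair overlapping, then by *HSPE1*, *HSF1*, *HSPH1*, *DNAJB1*, *HSPA1B* and *HSPA1A*. In the resistant cells *HSP90AA1* came second after *HSPA8*, ahead of *HSPD1* and *HSP90AB1*, and *HSPH1* and *DNAJB1* stood above *HSF1*. In C3.2 *HSP90AA1* was second in both states, and *HSP90AB1* and *HSPD1* overlapped in its parental cells. *HSPA1B* and *HSPA1A* were last in that order in every library.

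Ratios of genes within a library do not depend on the scaling of libraries. The ratio of *HSP90AA1* to *HSP90AB1* was 0.955 and 0.97 in C17.2 parental libraries and 1.68 and 1.72 in the resistant ones, against 1.27 and 1.31 in C3.2 parental and 1.29 and 1.34 in resistant libraries. It was higher in both resistant libraries of C17.2 and overlapped between the states of C3.2. The ratio of *HSPA1A* and *HSPA1B* summed to *HSPA8* was 0.0394 and 0.0383 in C17.2 parental, 0.0621 and 0.0536 in C17.2 resistant, 0.0399 and 0.0382 in C3.2 parental, and 0.069 and 0.0682 in C3.2 resistant libraries. Inducible HSP70 RNA thus gained on constitutive HSP70 RNA in both clones, from parental ratios that matched between them. The ratio of *HSPE1* to *HSPD1* was 0.245 and 0.256 in C17.2 parental and 0.416 and 0.388 in resistant libraries, and 0.453 and 0.51 in C3.2 parental and 0.529 and 0.531 in resistant libraries. With 2 libraries a group, an exact two-sided permutation test of a ratio cannot go below p = 0.333, so these are given without a test.

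**Figure D4:**
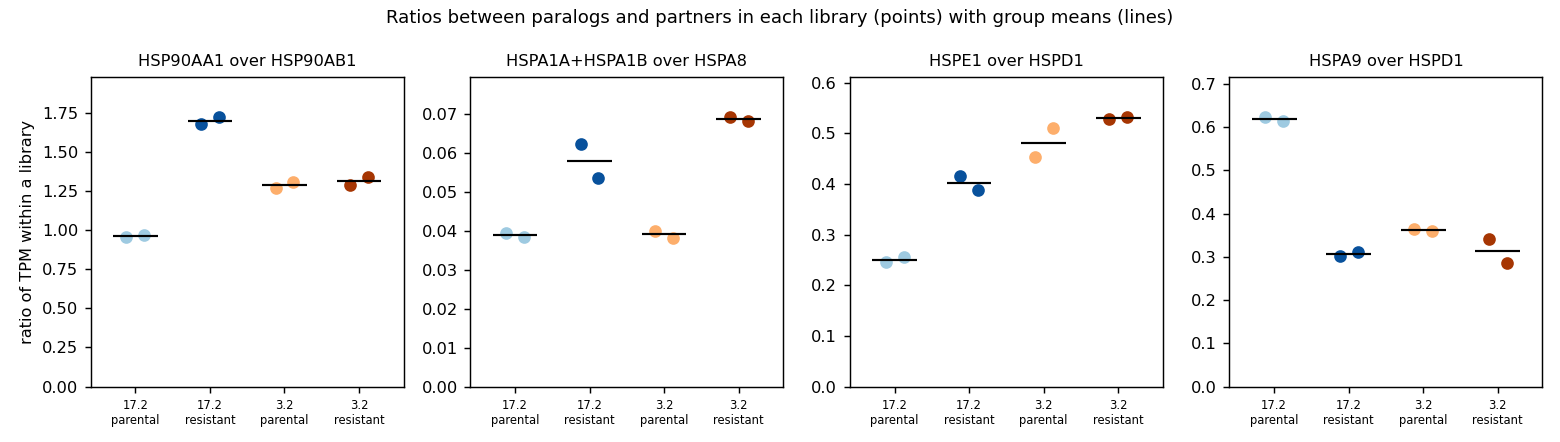
Ratios of TPM between genes of the same library (vertical axes, each from 0) for 4 pairs, by clone and state, with points for the libraries and lines for the means of 2. *HSP90AA1* over *HSP90AB1* is above 1.6 only in C17.2 resistant libraries, and *HSPA9* over *HSPD1* is above 0.6 only in C17.2 parental libraries.

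Other genes of the chaperone network were described from lists of 110 genes, of which 94 were tested. In C17.2, 33 rose (35.1%) and 6 fell (6.38%), against 13.4% and 13.9% of all genes, with a median log2 change of 0.123. In C3.2, 3 rose (3.19%) and 2 fell (2.13%), against 4.46% and 6.9% of all genes, with a median of -0.0474. Of 22 other genes known as HSF1 targets 18 were tested, 14 rose and 0 fell in C17.2 by limma (0 also lower at an unadjusted p under 0.05, median 0.404), and 2 rose in C3.2 (*AHSA1* and *SERPINH1*, median 0.0314). *BAG3*, *FKBP4*, *HSPA6* and *CRYAB* were below 1 TPM in all libraries and were not tested, although *BAG3* and *HSPA6* are among the genes that heat shock induces most. Some genes stand in more than 1 list. Of the 35 genes named from these and the marker lists that were called in C17.2, 29 were called under every alternative and whichever library was left out, and the exceptions were *HSPA4*, *DNAJC8*, *PPID*, *CACYBP*, *CLPB* and *GRPEL1*. Of 13 called in C3.2, only *IGLL1* was, and 12 lost their call under at least 1 setting.

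**Figure D5:**
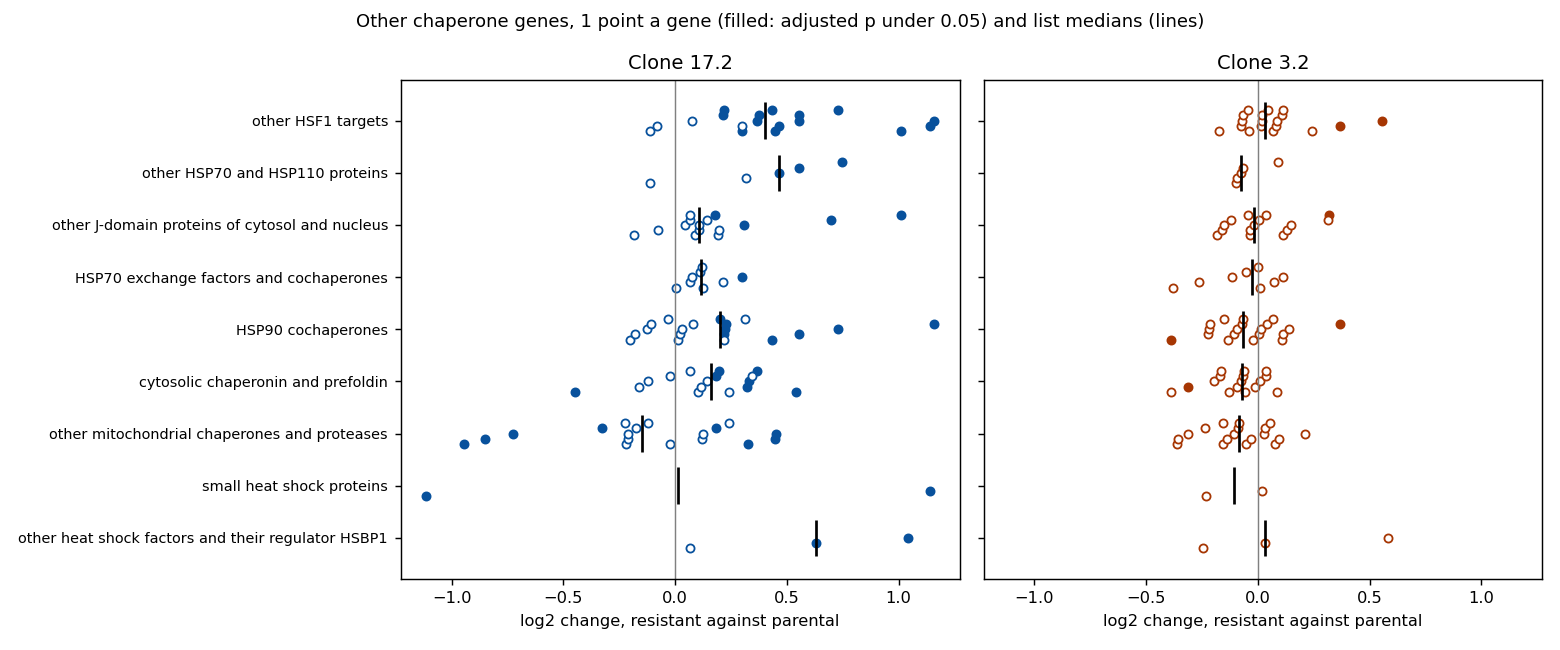
Log2 change of scaled TPM + 1, resistant against parental cells, on the horizontal axes for 9 lists of other chaperone genes in C17.2 and C3.2, with 1 point a gene (filled for an adjusted p under 0.05 in limma) and lines for list medians. Filled points lie mostly above 0 in C17.2, except among mitochondrial chaperones and proteases and small heat shock proteins, where as many lie below 0, and few points are filled in C3.2.

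Among other HSP70 and HSP110 proteins 3 of 5 tested genes (60.0%) rose in C17.2, against 13.4% of all genes, and none was called in C3.2 by limma, nor at an unadjusted p under 0.05. They were *HSPA4* (log2 change 0.46) and *HSPA4L* (0.56), which are exchange factors like HSPH1, and *HSPA2* (0.75), which was at most 2.31 TPM in any library. Of 15 J-domain genes 4 (26.7%) rose in C17.2, led by *DNAJA1*, a further partner of HSP70, which went from 43.70 and 42.85 TPM to 96.48 and 100.93 TPM (log2 change 1.01, adjusted p = 5.95e-05 from limma). In C3.2 *DNAJA1* was at 71.01 and 73.38 TPM in parental cells and 86.64 and 77.05 TPM in resistant cells (log2 change 0.11, not called), and only *DNAJB2* of this list passed the test (0.32, adjusted p = 0.0229 from limma). Of 8 other exchange factors and cochaperones of HSP70 only the ubiquitin ligase *STUB1* passed in C17.2 (0.30, adjusted p = 0.00425 from limma), which at 12.5% is close to the 13.4% of all genes that rose.

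Of 19 cochaperones of HSP90, 8 rose (42.1%) and 0 fell in C17.2 by limma, against 13.4% and 13.9% of all genes, with 10 higher and 4 lower at an unadjusted p under 0.05. *AHSA1*, which stimulates the ATPase of HSP90, went from 40.70 and 36.54 TPM to 95.36 and 100.14 TPM (log2 change 1.16, adjusted p = 3.16e-05 from limma), and *STIP1*, which links HSP70 to HSP90, rose by 0.73 (adjusted p = 0.000784 from limma). *AHSA1* was the cochaperone called in both clones. In C3.2 it went from 60.61 and 64.97 TPM to 88.17 and 81.81 TPM (0.37, adjusted p = 0.0062 from limma), and *FKBP5*, an immunophilin that binds HSP90, fell by 0.39 (adjusted p = 0.00346 from limma). *FKBP5* had a log2 change of -0.11 in C17.2 (not called), which was 0.05 on TPM as deposited. The cytosolic chaperonin and its helper prefoldin had 6 of 16 genes (37.5%) higher in C17.2, against 13.4% of all genes. All of them were chaperonin subunits, with *CCT6A* (0.54) and *TCP1* (0.37) the largest. *CCT8* went the other way, and fell in both clones, by 0.45 in C17.2 (adjusted p = 0.000889) and by 0.32 in C3.2 (adjusted p = 0.00916, both from limma), although its protein is a subunit of the same ring. *CCT4*, a further subunit, had a log2 change of -0.02 in C17.2 and was not called.

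The mitochondrial list was divided in C17.2, with 4 of 18 tested genes higher and 4 lower (22.2% each way, against 13.4% and 13.9% of all genes), and no gene called in C3.2 by limma, where 5 were lower and 0 higher at an unadjusted p under 0.05. *HSPA9*, the HSP70 of the matrix, went from 178.14 and 167.16 TPM to 110.11 and 122.68 TPM (log2 change -0.73, adjusted p = 0.00556 from limma). *LONP1*, a protease of the matrix, fell by 0.95 (adjusted p = 0.00027), and *TIMM44*, which anchors HSPA9 to the import channel, fell by 0.85 (adjusted p = 0.000497, both from limma). *DNAJA3*, a J-domain partner of HSPA9, fell by 0.33. The ratio of *HSPA9* to *HSPD1* was 0.622 and 0.613 in C17.2 parental, 0.303 and 0.312 in C17.2 resistant, 0.364 and 0.359 in C3.2 parental, and 0.342 and 0.286 in C3.2 resistant libraries. The matrix HSP70 thus went opposite to the matrix chaperonin in C17.2. The genes that rose were *GRPEL1*, the exchange factor of HSPA9 (0.32), the proteases and disaggregases *SPG7* (0.45) and *CLPB* (0.45), and *TRAP1*, the HSP90 of the matrix (0.18).

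Of 9 small heat shock proteins only *HSPB1* and *HSPB7* were tested. *HSPB1*, which holds unfolded proteins without ATP, went from 94.07 and 85.49 TPM to 216.71 and 228.10 TPM in C17.2 (log2 change 1.14, adjusted p = 0.00208 from limma), and was at 165.95 and 166.33 TPM in C3.2 parental and 213.19 and 145.68 TPM in resistant cells. The resistant libraries of C3.2 were thus far apart for this gene, and its change there (0.019) was not called. It was -0.22 without resistant replicate 1 of C3.2 and -0.0027 without parental replicate 2, so that its sign depended on single libraries. *HSPB7* fell by 1.11 in C17.2 (adjusted p = 0.000196 from limma), from 4.56 and 4.51 TPM to 1.77 and 1.69 TPM. Among other heat shock factors, *HSF4* rose by 1.04 (adjusted p = 0.00373) and *HSBP1*, a small protein that binds the trimer of HSF1, by 0.63 (adjusted p = 0.00319, both from limma) in C17.2.

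The paralogs of the endoplasmic reticulum also rose in C17.2. *HSPA5*, the HSP70 of that compartment, went from 26.94 and 24.70 TPM to 63.40 and 66.46 TPM in C17.2 (log2 change 1.14, adjusted p = 2.39e-05 from limma) and from 45.46 and 48.56 TPM to 60.26 and 57.78 TPM in C3.2 (0.26, adjusted p = 0.0137 from limma). *HSP90B1*, the HSP90 of that compartment, went from 76.05 and 77.50 TPM to 185.51 and 202.10 TPM in C17.2 (1.16, adjusted p = 7.26e-05 from limma) and was at 149.24 and 145.77 TPM in C3.2 parental and 170.62 and 159.00 TPM in resistant cells (0.09, not called). Of the HSP90 genes of the cytosol and the endoplasmic reticulum, *HSP90AB1* thus had the smallest change in C17.2.

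Immediate early genes, which respond within minutes to stimulation or handling, also differed between states. Summed over 9 genes they were at 69.08 to 77.36 TPM in C17.2 parental cells, 99.58 to 105.7 TPM in the resistant cells, 85.17 to 88.66 TPM in C3.2 parental cells and 92.37 to 111.2 TPM in the resistant cells. In C17.2 *FOS*, *FOSB*, *EGR1* and *DUSP1* rose (44.4%) and *ATF3* fell (11.1%), against 13.4% and 13.9% of all genes. In C3.2 *FOSB* (adjusted p = 0.0347) and *EGR1* (adjusted p = 0.0436, both from limma) rose and *ATF3* and *DUSP1* fell. That was 22.2% each way, against 4.46% higher and 6.9% lower of all genes. Of 9 processing alternatives, these C3.2 calls held in 7 for *FOSB*, 6 for *EGR1* and 8 each for *ATF3* and *DUSP1*. With a library left out, the *EGR1* call was lost in every case, the *FOSB* call in most, and those of *ATF3* and *DUSP1* in some. Of 10 tested markers of the leukemia, 3 fell and 0 rose in C17.2 by limma (0 also higher at an unadjusted p under 0.05), and 4 fell and 1 rose in C3.2. *PAX5*, a transcription factor of B cells, was the one called higher in C3.2 (0.27, adjusted p = 0.0229 from limma), a call lost with most libraries left out. *IGLL1*, part of the surrogate light chain, fell by 2.16 in C17.2 and fell by 2.35 in C3.2 on the log2 scale. The collagen gene *COL1A1* rose in C17.2, by 0.93, from 2.97 and 2.63 TPM to 7.45 and 6.50 TPM. Any part of these genes' changes in those of the chaperones was not tested.

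Profiles over the 8 libraries were compared by Pearson correlation of log2(scaled TPM + 1) with those of protein-coding genes at a mean of at least 10 TPM, as a description in which all points share the same 4 groups and 2 clones. For *HSPA1A* and *HSPA1B* summed, the most alike of 6392 genes were *BOLA2B*, *SYNGR2*, *PLOD1*, *DAD1* and *FAM98A*, with r from 0.982 to 0.989. Among the genes described here *DNAJB1* came closest, at rank 26 (r = 0.967), followed by *HSPA8* at rank 233 (r = 0.903), and *HSF1* had r = -0.593. For *HSPD1* the most alike of 6393 genes were *ZFP1*, *BZW1*, *CEBPZ*, *CENPF* and *CALM2*, with r from 0.968 to 0.989. Its partner *HSPE1* stood at rank 475 (r = 0.782), behind *HSP90AA1* at rank 196 (r = 0.867) and *HSPA8* at rank 272 (r = 0.842).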

How the data were processed

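RNA-seq libraries were prepared by the authors from total RNA after ribosomal depletion. Per the labels and methods, reads were trimmed with Trim Galore 0.6.3, aligned to hg38 with STAR 2.7.9a and quantified with RSEM 1.3.1, and the authors deposited TPM per gene with no scaling between libraries. The labels describe single-end and the methods paired-end reads. No columns of other samples or of comparisons were present.

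Genes with at least 1 TPM in at least 1 of 8 libraries were kept (15614). Library factors were trimmed means of log2 ratios to the mean library (30% of ratios and 5% of means trimmed from each end). With limma 3.58.1 in R 4.3.3, log2 of scaled TPM + 1 was fitted with an intensity trend in 1 model of 4 groups, with contrasts within each clone and their difference, two-sided, with Benjamini-Hochberg adjustment and a threshold of 0.05. Fold changes on this scale understate those of low genes. The count-based fit of the study was not repeated, since TPM are not counts. The model was tested on simulated data in which 200 of 15614 genes changed by a log2 value of 1. It recovered 91.5% of them, and 5.67% of its calls were false. The changed genes were drawn only from well expressed ones, so recovery of changes in low genes was not simulated, nor were smaller changes. Positions were looked up by gene identifier in Gencode release 44 (GRCh38), and promoters were taken from RefSeq (GRCh38.p14). Where the symbol *HSPA14* stood for 2 identifiers, ENSG00000187522.16 was used. Python 3.11.15, pandas 2.3.3 and matplotlib 3.10.9 made tables and plots.

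The 10 genes and all lists were chosen with earlier results of these data known. Named genes were the 10 genes and, from each other list, at most 2 rising and 2 falling genes per clone with the largest change among those past the threshold in either clone or in the difference, at a mean of at least 1 TPM. *DNAJA3*, *TRAP1* and genes overlapping those described were added. A further marker of the B lineage is not reported here.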

Additional observations from a re-analysis of the deposited data

Results flagged for a closer look

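Changes between resistant and parental cells differed between the clones for these genes, by the limma interaction test (log2 change in C17.2 minus that in C3.2, adjusted p under 0.05 over all genes tested). Beyond the 10, genes were listed by the naming rule given above, which leaves out other genes of the same lists that also differed. Of the 10 heat shock genes, the difference was 0.95 for *HSPA1A*, 0.84 for *HSPA8*, 0.92 for *HSP90AA1*, 0.81 for *HSPH1*, 0.46 for *DNAJB1*, 0.38 for *HSPD1* and 0.91 for *HSPE1*.

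Of the other chaperones it was 0.88 for *HSPA5*, 1.07 for *HSP90B1*, 0.84 for *HSPA2*, 0.62 for *HSPA4L*, 0.90 for *DNAJA1* and 0.33 for *DNAJC8*. Of the partners of HSP90 it was 0.79 for *AHSA1*, 0.62 for *STIP1* and 0.28 for *FKBP5*, the last of these from a fall in C3.2. In the chaperonin and prefoldin 6 of 16 tested genes differed (37.5%), all in this direction, against 4.92% of all genes. Of the named ones the difference was 0.53 for *CCT6A*, 0.30 for *CCT3* and 0.34 for *PFDN5*, the last called in neither clone alone. In mitochondria it was 0.50 for *SPG7*, -0.79 for *LONP1* and -0.61 for *TIMM44*. It was 1.12 for *HSPB1*, -0.88 for *HSPB7*, 0.60 for *HSBP1* and -0.48 for *SERPINH1*, a collagen chaperone with the larger change in C3.2.

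Of genes outside the chaperone network it was 1.47 for *EGR1* and 0.87 for *DUSP1*, both immediate early genes, and -0.48 for *CD79B*, of the B lineage. The *CD79B* call held in 5 of 8 processing alternatives and was lost with most libraries left out. *VPREB1*, a marker of the same list that the naming rule left out, differed the other way, by 0.34 (adjusted p = 0.0493 from limma). Of the 22 named genes outside the 10, 13 were called under every processing alternative and 9 also when any library was left out: *DNAJA1*, *AHSA1*, *SPG7*, *LONP1*, *HSPB7*, *HSP90B1*, *HSPA5*, *EGR1* and *DUSP1*.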

How the results depend on the processing

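The rises of *HSPA1A*, *HSPA1B*, *HSPA8*, *HSP90AA1*, *HSPH1*, *DNAJB1* and *HSPE1* in C17.2 were called under every alternative and whichever library was left out, and so were the differences between clones of *HSPA1A*, *HSPA8*, *HSP90AA1*, *HSPH1* and *HSPE1*. The number of the 10 genes lower in C17.2, 1 (*HSF1*), was 0 on TPM as deposited, after rescaling to protein-coding genes and without a filter, and 0 to 1 when a library was left out. The number higher in C3.2, 3, was 1 with each clone fitted alone, and in the difference between clones 0 to 1 were lower without a library. In the wider network, 33 genes higher in C17.2 became 50 on TPM as deposited and 18 to 36 without a library. In C3.2 the 3 higher became 9 after rescaling to protein-coding genes, 0 with each clone fitted alone and 0 to 3 without a library, and the 2 lower became 1 on TPM as deposited, 0 with each clone fitted alone and 1 to 12 without a library, 12 being without resistant replicate 1. With summed copies the genes number 9. The cause of these changes was not tested.

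Over all genes, calls in C3.2 numbered 1773, 74 with the clone fitted alone, 1167 without a filter, 343 without its parental replicate 1 and 422 without its parental replicate 2. TPM as deposited moved the median of all genes by 0.135 in C17.2. The share of calls that were higher was 49.1% in C17.2 (75.1% as deposited, 64.5% over protein-coding genes), 39.3% in C3.2 (57.8%, 70.2% and, quantile-normalized, 50.8%) and 49.6% in the difference (64% as deposited).

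The log2 change turned sign for genes near 0. In C3.2 this held for *HSPH1* (0.064 on TPM as deposited, 0.10 over protein-coding genes, 0.049 quantile-normalized, 0.00058 at a mean of at least 1 TPM), *HSPD1* (0.032 quantile-normalized), *SPG7* (0.014, 0.051 and 0.021 under the 3 scalings), *CACYBP* (0.032 over protein-coding genes and 0.00084 quantile-normalized), *HSPA4L* (0.022) and *HSPA4* (0.027, both over protein-coding genes). In C17.2 *FKBP5* turned to 0.048 as deposited. With a library left out, the change in C3.2 spanned 0 for *HSF1* (-0.040 to 0.12), *HSP90AB1* (-0.00038 to 0.019), *HSPH1* (-0.078 to 0.074), *HSPE1* (-0.020 to 0.091), *HSPA4* (-0.25 to 0.10), *CACYBP* (-0.24 to 0.099), *CCT6A* (-0.0093 to 0.027), *GRPEL1* (-0.020 to 0.086), *HSPB1* (-0.22 to 0.26) and *HSBP1* (-0.10 to 0.17), and in C17.2 for *SERPINH1* (-0.0052 to 0.16) and *PAX5* (-0.033 to 0.074). No paired analysis was possible because replicate numbers follow deposit order and mark no shared culture or day. Where a left-out library leaves a group with 1, that library is assumed to vary like the other groups.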
